A study of Mus musculus with 8 samples.

Results

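The genes described here encode the nuclear subunits of the oxidative phosphorylation complexes of mitochondria, with cytochrome c and the complex I assembly factors that share the Nduf name. Members were taken by name from the array's annotation: every gene whose symbol starts with Nduf, Uqcr, Atp5 or Cox followed by a digit from 4 to 8, the Sdha, Sdhb, Sdhc and Sdhd genes, Cyc1 and Cycs. This gave 92 of the 18193 genes named on the array, carried by 184 probe sets. Each gene was read from its brightest probe set over the 8 arrays. Ndufs6, Ndufa11 and Cox7b, which also belong to these complexes, were not analysed here.

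The study compared light zone with dark zone B cells of the germinal centre, the structure in which B cells divide, mutate their antibody genes and are selected for antigen binding. All cells came from lymph nodes of C57BL/6 mice, 12 days after the protein conjugate NP-KLH in alum was injected under the skin, and all were sorted as B220+ CD38- CD95+ before they were split by CXCR4 and CD83. There were 4 arrays of light zone cells and 4 of dark zone cells, and every sample came from immunized mice. The labels call the samples biological replicates without saying whether each came from separate or pooled mice, and give neither age nor genotype beyond the strain, so p-values measure the spread between these samples.

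Oxidative phosphorylation passes electrons from nutrients to oxygen and uses the energy to make ATP. Complex I takes electrons from NADH and complex II, succinate dehydrogenase, takes them from succinate within the tricarboxylic acid (TCA) cycle. Both pass them through ubiquinone to complex III, from which cytochrome c carries them to complex IV. Complexes I, III and IV pump protons across the inner membrane, and complex V, the ATP synthase, lets protons flow back through a rotor that drives ATP synthesis. Complex II is encoded wholly in the nucleus, whereas the other complexes also hold subunits encoded by mitochondrial DNA, which are not among these members. B cells raise mitochondrial respiration on activation, and germinal centre B cells are known to rely on it.

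The promoters of such genes are known for binding sites of the transcription factors NRF1, ETS family members such as GABPA, and YY1. The following stretches are shown for Sdha, Sdhb and Sdhd, 3 of the 4 complex II genes, which all differed between the zones in 1 direction. They are also shown for the 3 genes of the ATP synthase c subunit, which encode the same mature protein and of which only Atp5g1 passed the threshold given below. Each is the 120 bases just upstream of the annotated start, 5′ to 3′ in the gene's direction, from RefSeq annotation on build GRCm38.p6. Capitals mark matches to an NRF1 motif (GCGC and TGCGC with 1 base of any kind between them, on either strand) or an ETS motif (CCGGAAG on either strand).
Sdha (chr13:74350241-74350360, minus strand): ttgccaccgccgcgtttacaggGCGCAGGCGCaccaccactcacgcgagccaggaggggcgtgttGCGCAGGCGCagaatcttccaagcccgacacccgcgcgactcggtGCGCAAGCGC
Sdhb (chr4:140961151-140961270, plus strand): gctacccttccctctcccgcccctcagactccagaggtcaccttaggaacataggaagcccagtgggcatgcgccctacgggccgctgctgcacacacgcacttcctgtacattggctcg
Sdhd (chr9:50603850-50603969, minus strand): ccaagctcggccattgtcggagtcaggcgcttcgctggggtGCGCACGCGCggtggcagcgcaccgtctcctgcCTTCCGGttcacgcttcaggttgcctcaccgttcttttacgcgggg
Atp5g1 (chr11:96075632-96075751, minus strand): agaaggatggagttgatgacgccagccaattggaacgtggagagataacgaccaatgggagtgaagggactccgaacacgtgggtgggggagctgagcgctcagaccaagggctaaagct
Atp5g2 (chr15:102671048-102671167, minus strand): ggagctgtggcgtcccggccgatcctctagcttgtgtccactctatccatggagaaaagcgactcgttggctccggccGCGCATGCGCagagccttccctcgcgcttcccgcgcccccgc
Atp5g3 (chr2:73911327-73911446, minus strand): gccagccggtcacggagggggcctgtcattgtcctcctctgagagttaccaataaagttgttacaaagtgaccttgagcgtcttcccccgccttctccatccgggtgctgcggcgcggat

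In the window from 250 bases before to 50 bases after the start, Sdha held 3 NRF1 matches, at positions -98, -55 and -10 from the start. Sdhd held 1 NRF1 match at -79 and 1 ETS match at -46, and Sdhb held 1 ETS match at 7, just past its printed stretch. Among the c subunit genes, Atp5g2 held an NRF1 match at -42 and Atp5g3 one at 13, past its printed stretch, whereas these letters were not found in the Atp5g1 window.

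Values are intensities, the brightness of a probe set on the scale the authors deposited, and differences are dark zone minus light zone on the log2 scale with a standard error (SE). A gene was tested if its mean intensity reached 27.8, the median over all probe sets, and was called if its adjusted p from limma, Benjamini-Hochberg over the 10547 genes tested, was under 0.05. The labels give the light zone gate as CXCR4 high and CD83 low, the reverse of the usual definition, while the arrays titled light zone had more Cd83 (7381 against 1478) and less Cxcr4 (804 against 1571) mRNA. Groups follow the titles. Median intensities lay between 27.33 and 28.13, and arrays correlated at 0.995 to 0.997 within a zone and 0.9739 to 0.9799 between zones. All 7 germinal centre B cell markers found on the array were above the filter, with a summed intensity of 17115 to 17489.9 in light zone and 18676 to 19255 in dark zone arrays. Of the T cell markers 3 of 7 were above the filter, summing to 184 to 195 and 181 to 188, and Cd3d, Cd3g and Cd8a were below it. Macrophage markers, with 4 of 9 above the filter, summed to 244 to 298 in light zone and 335 to 1069 in dark zone arrays, and Itgam, Cd14, Mertk, C1qa and C1qb were below the filter. Lyz2 (mean intensity 52.6 in light zone and 469.8 in dark zone arrays) and Csf1r (39.1 and 52.1) were called higher in dark zone cells, Cd68 (58.8 and 44.9) was called lower and Adgre1 (38.7 and 40.7) did not pass. Dendritic cell markers (3 of 5 above the filter) summed to 661 to 768 and 630.4 to 853, and plasma cell markers (5 of 5) to 10751 to 12069 and 11722 to 12263. Jchain, called higher in dark zone cells, and Xbp1, which did not pass, make up most of the plasma cell sum, while Irf4 (mean intensity 239 in light zone and 58.7 in dark zone arrays) and Prdm1 (45.4 and 17.6) were called lower. Markers of follicular dendritic and stromal cells (2 of 6) summed to 1935 to 2211 and 944 to 1231, nearly all of it Cr2, which B cells also express, with Pdgfrb and Pdpn below the filter. The naive and memory B cell markers, 3 of 3 above the filter, summed to 2867 to 3106 in light zone and 602 to 675 in dark zone arrays. The part of other cells in the differences below was not tested. In sorted bulk samples, fewer cells of a type and less RNA per cell cannot be told apart.

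The complexes did not move as a block. Of 87 members tested, 18 were higher in dark zone cells, 19 were lower and 50 did not pass. That is 42.5% called, beside 43.9% of all genes tested. The share called higher was 20.7%, beside 19.1% of all genes, and the share called lower 21.8%, beside 24.8%. The median difference over the members was -0.01, as it was over all genes, and the median size of the difference was 0.15, beside 0.17. In 41 members the 4 dark zone arrays lay wholly above or wholly below the 4 light zone arrays, 47.1% beside 41.3% of all genes.

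The differences were modest in size. Among the called members 7 were higher and 14 lower by at least 1.2-fold, together 24.1% of those tested beside 32.5% of all genes. At 1.5-fold there were 3 members, Atp5b and Uqcrc1 higher and Ndufaf4 lower, 3.45% beside 10.1% of all genes. At 2-fold there were 0 members, beside 3.13% of all genes. The remaining 5 members, Ndufb4, Cox7a1, Cox8b, Cox7b2 and Cox6b2, were below the filter and were not tested. Cox7a1 and Cox8b are known as subunit forms of heart and skeletal muscle, and Cox6b2 and Cox7b2 as forms of the testis.

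**Figure D1:**
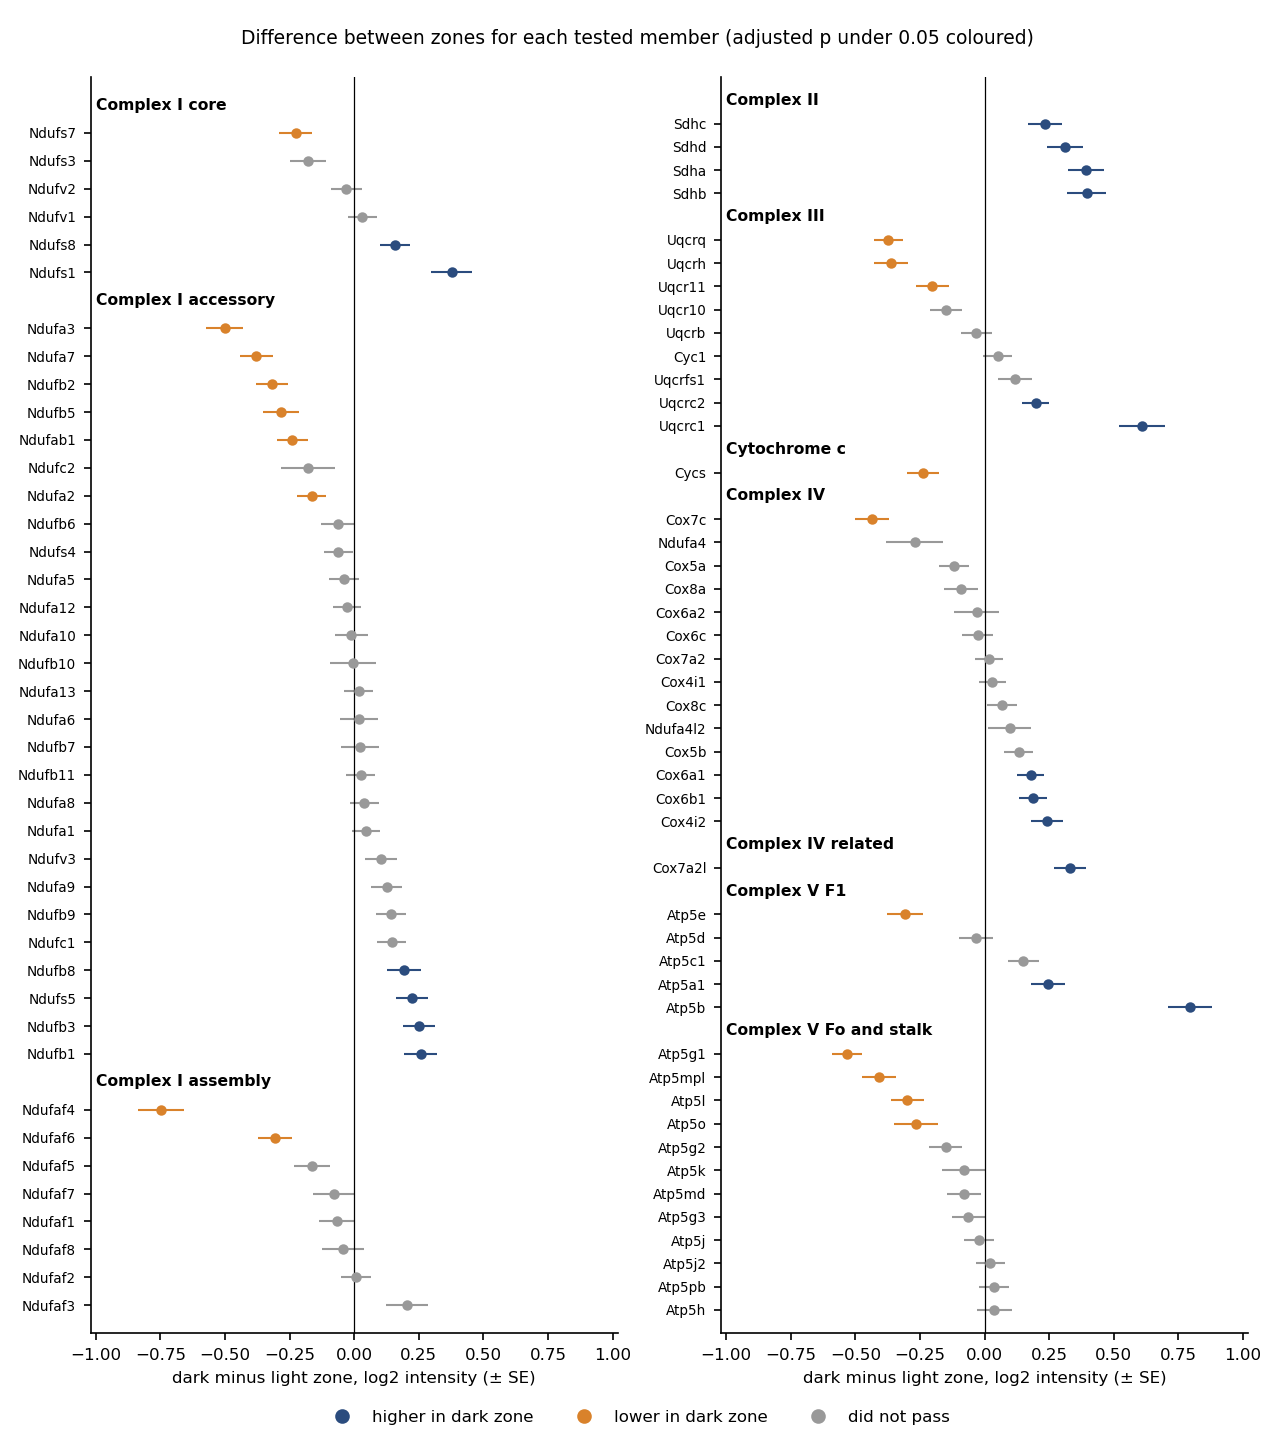
Difference between zones (dark minus light, log2 intensity) for each of the 87 tested members, grouped by complex, with bars of 1 SE and colour by the limma call. Complex II lies wholly to the right of 0, from 0.23 to 0.40, while every other complex holds members on both sides.

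In complex I the 33 tested subunits fell on both sides, with 6 higher in dark zone cells, 7 lower and 20 that did not pass. Their median difference was 0.02. These were 18.2% higher and 21.2% lower, beside 19.1% and 24.8% of all genes tested. The core subunits carry the flavin and the iron-sulphur clusters along which electrons run. Of the 6 tested, Ndufs1 and Ndufs8 were higher, Ndufs7 was lower, and Ndufs3, Ndufv1 and Ndufv2 did not pass. Ndufs1, the largest subunit of the complex, had light zone intensities of 785, 638, 655 and 643 and dark zone intensities of 917, 932, 858 and 818. The difference was 0.38 (SE 0.08, limma adjusted p = 0.0021) and the groups did not overlap. Ndufs7, which carries the last cluster before ubiquinone, read 1872, 1791, 1875 and 1853 in light zone and 1667, 1694, 1447 and 1519 in dark zone arrays. It was lower by a difference of -0.23 (SE 0.07, limma adjusted p = 0.014), again without overlap. Ndufs8, another iron-sulphur subunit, differed by 0.16 (SE 0.06, limma adjusted p = 0.043) and lost its call in 7 of the 8 fits that each left out 1 array, all but that without light zone replicate 4, with adjusted p of 0.055 to 0.1. Its call was also lost with a 25th percentile filter (adjusted p = 0.063) or none (0.069) and when arrays were median centred (0.079). It was lost with the mean of its probe sets (0.75), and with probe sets without suffix the sign turned (-0.10, adjusted p = 0.24).

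The accessory subunits surround the core and are needed to assemble and stabilise it. Of 27 tested, 6 were lower in dark zone cells (22.2%), 4 were higher (14.8%) and 17 did not pass. Over all genes tested 24.8% were lower and 19.1% higher. Ndufa3, a small membrane subunit, had the largest difference of any complex I subunit. Its light zone intensities were 3909, 4166, 4034 and 4672 and its dark zone intensities 3196, 2951, 2913 and 2778, a difference of -0.50 (SE 0.07, limma adjusted p = 0.00014). The lowest light zone array lay above the highest dark zone array. Ndufa7 read 2312, 2271, 2160.1 and 2218 in light zone and 1736, 1838, 1756 and 1570.1 in dark zone arrays, without overlap. Its difference was -0.38 (SE 0.06, limma adjusted p = 0.00047).

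Ndufb2 and Ndufb5, subunits of the membrane arm, were lower by -0.32 (SE 0.06, limma adjusted p = 0.0014) and -0.28 (SE 0.07, limma adjusted p = 0.0054). The Ndufb2 call was lost when probe sets with a suffix were set aside (-0.02, adjusted p = 0.86), and the Ndufb5 call when all its probe sets were averaged (-0.21, adjusted p = 0.054). Ndufa2 was lower by -0.16 (SE 0.06, limma adjusted p = 0.034), and its call was lost in 6 of the 8 fits that left out 1 array, all but those without dark zone replicate 4 or light zone replicate 3, with adjusted p of 0.051 to 0.079, and with a 25th percentile filter (0.051) or none (0.056). Ndufab1, the mitochondrial acyl carrier protein, which also serves fatty acid synthesis, was lower by -0.24 (SE 0.06, limma adjusted p = 0.0072) at its brightest probe set. Its other probe sets did not share 1 direction, with differences of 0.35, -0.24, 0.28 and 0.24, so the direction for Ndufab1 depends on the probe set.

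The accessory subunits that were higher belong to the membrane arm or its edge. Ndufb1 read 680.4, 751, 710.1 and 728 in light zone and 776, 904, 880.3 and 871 in dark zone arrays, which gave a difference of 0.26 (SE 0.07, limma adjusted p = 0.0075). Ndufb3 differed by 0.25 (SE 0.06, limma adjusted p = 0.0063) and Ndufs5 by 0.22 (SE 0.06, limma adjusted p = 0.012), both without overlap of the groups. Ndufb8 differed by 0.19 (SE 0.07, limma adjusted p = 0.036) and was the one called member whose groups overlapped, light zone replicate 4 at 2516 lying above dark zone replicate 4 at 2509. Its call was lost in 6 of the 8 fits that left out 1 array, all but those without replicate 4 of either zone, with adjusted p of 0.052 to 0.1. It was also lost with no filter (0.053), when arrays were median centred (0.058) and with the mean of its probe sets (0.061) or those without suffix (0.52). The 20 subunits that did not pass had differences between -0.18 and 0.14 and adjusted p between 0.054 and 0.97.

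Of the 8 Nduf-named assembly factors, which build complex I but leave it before it works, 2 were lower in dark zone cells and 6 did not pass. The share called lower was thus close to the 24.8% of all genes tested. By limma 0 were called higher, beside 19.1% of all genes, with 1 higher at an unadjusted p under 0.05. In the fits without replicate 4 of either zone, 1 was called higher. Ndufaf4, which works together with Ndufaf3, had the largest fall of any member. It read 473, 488, 441 and 529.7 in light zone and 267, 340.4, 265 and 282 in dark zone arrays, 1.68-fold lower (log2 difference -0.75, SE 0.09, limma adjusted p = 3.1e-05). The groups stood far apart, and its other probe set also read lower, by -0.42. Ndufaf6, which is needed for an early step of assembly, read 129, 139, 145 and 142 in light zone and 109, 122, 113 and 104 in dark zone arrays, which gave a difference of -0.31 (SE 0.07, limma adjusted p = 0.0027).

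Complex II was the one complex in which all members were called in the same direction. All 4 succinate dehydrogenase genes were higher in dark zone cells, beside 19.1% of all genes tested, with a median difference of 0.35. Sdha, the flavoprotein that oxidises succinate, read 1298, 1115, 1294 and 1207 in light zone and 1663, 1554, 1709.7 and 1515 in dark zone arrays, which gave a difference of 0.39 (SE 0.07, limma adjusted p = 0.00072). Sdhb, the iron-sulphur subunit that passes the electrons on, read 2580.5, 2287, 2468 and 2339 in light zone and 2805, 3368, 3436 and 3139 in dark zone arrays, which gave a difference of 0.40 (SE 0.08, limma adjusted p = 0.0011). Both genes encode the soluble, catalytic part of the enzyme.

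The remainder is the membrane anchor that binds ubiquinone. Sdhd read 1064, 1026, 1132 and 960.5 in light zone and 1327, 1326, 1349 and 1179.6 in dark zone arrays, which gave a difference of 0.31 (SE 0.07, limma adjusted p = 0.0035). Sdhc read 182, 204, 188 and 197 in light zone and 226, 214, 248 and 220.1 in dark zone arrays, which gave a difference of 0.23 (SE 0.07, limma adjusted p = 0.013). In none of the 4 genes did the groups overlap, and the 4 calls held in each of the 8 fits that left out 1 array. The mean over the 4 genes, relative to their light zone mean, lay between -0.04 and 0.05 in light zone and between 0.26 and 0.43 in dark zone arrays on the log2 scale. A second bright probe set of Sdha gave 0.37, and a dim one gave -0.16 (unadjusted p = 0.0456 in limma). Second, dimmer probe sets gave 0.17 for Sdhc (unadjusted p = 0.105 in limma) and 0.10 for Sdhd (unadjusted p = 0.246 in limma), neither under 0.05.

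**Figure D2:**
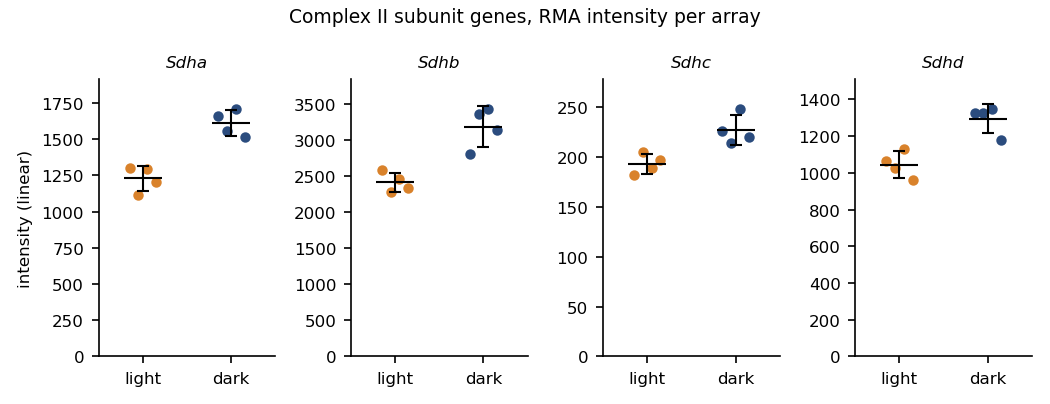
Intensity of the 4 succinate dehydrogenase genes in each array, with points for arrays, a line for the zone mean and bars of 1 SD (n = 4). In each gene every dark zone array lies above every light zone array, with mean ratios of 1.18-fold for Sdhc to 1.32-fold for Sdhb.

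Succinate dehydrogenase is also an enzyme of the TCA cycle. Among 17 tested genes of pyruvate dehydrogenase and the cycle, a list that leaves out the Sdh genes, 7 were higher in dark zone cells, and the median difference was 0.14. That is 41.2% called higher, beside 19.1% of all genes tested. By limma 0 were called lower, beside 24.8% of all genes, and 0 were lower at an unadjusted p under 0.05. Idh2, mitochondrial isocitrate dehydrogenase, rose from an intensity, on the deposited scale, of 256 ± 8.35 (SD, n = 4) in light zone cells to 431 ± 36.2 (SD, n = 4), a log2 gap of 0.75 (SE 0.07, limma adjusted p = 4e-06). Pdha1, the pyruvate-binding subunit of pyruvate dehydrogenase, differed by 0.44 (SE 0.10, limma adjusted p = 0.0046). Fh1, the fumarase that follows succinate dehydrogenase in the cycle, differed by 0.35 (SE 0.06, limma adjusted p = 0.00044). Sucla2, of the succinyl-CoA ligase that precedes it, differed by 0.31 (SE 0.07, limma adjusted p = 0.0048). Pdhx, Idh3g and Mdh2 were the others called.

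Complex III genes moved both ways. Of 9 genes, the 2 core proteins were higher in dark zone cells, 3 small subunits were lower and 4 did not pass. The shares were 22.2% higher and 33.3% lower, beside 19.1% and 24.8% of all genes tested. Uqcrc1, core protein 1, read 749, 565, 742 and 648 in light zone and 1081, 1004, 1055 and 966 in dark zone arrays. It was 1.53-fold higher (log2 difference 0.61, SE 0.09, limma adjusted p = 0.00017). Uqcrc2, core protein 2, read 4309, 4252, 4328 and 4397 in light zone and 5052, 5004, 4839 and 4928 in dark zone arrays, which gave a smaller difference of 0.20 (SE 0.05, limma adjusted p = 0.0095) with groups as clearly apart. The core proteins face the matrix and do not carry electrons themselves.

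Uqcrq, a small subunit near cytochrome b, read 1545, 1601, 1532 and 1654 in light zone and 1221, 1222, 1259 and 1184 in dark zone arrays, which gave a difference of -0.37 (SE 0.06, limma adjusted p = 0.0002). Uqcrh, the hinge protein at which cytochrome c docks, read 6056, 6119.7, 5834 and 5931 in light zone and 4146, 4826, 4926 and 4773 in dark zone arrays, which gave a difference of -0.36 (SE 0.07, limma adjusted p = 0.00089). In both, every dark zone array was below every light zone array. Uqcr11, the smallest subunit, differed by -0.20 (SE 0.06, limma adjusted p = 0.021), and lost its call without dark zone replicate 3, light zone replicate 1 or light zone replicate 4 (adjusted p of 0.056 to 0.06). The electron carriers of the complex did not pass: cytochrome c1, Cyc1, differed by 0.05 (SE 0.06, limma adjusted p = 0.49) and the Rieske iron-sulphur protein, Uqcrfs1, by 0.12 (SE 0.07, limma adjusted p = 0.16).

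Cycs, cytochrome c itself, which also activates caspases when released from mitochondria, was lower in dark zone cells. It read 4922, 5605, 5162 and 5362 in light zone and 4413, 4378, 4347 and 4686 in dark zone arrays, without overlap. The difference was -0.24 (SE 0.06, limma adjusted p = 0.0076). A second probe set gave -0.26 and another -0.03. The call was lost with the mean of the probe sets (-0.11, adjusted p = 0.085) and with probe sets without suffix (-0.03, adjusted p = 0.77), so both size and call depend on the probe set read.

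**Figure D3:**
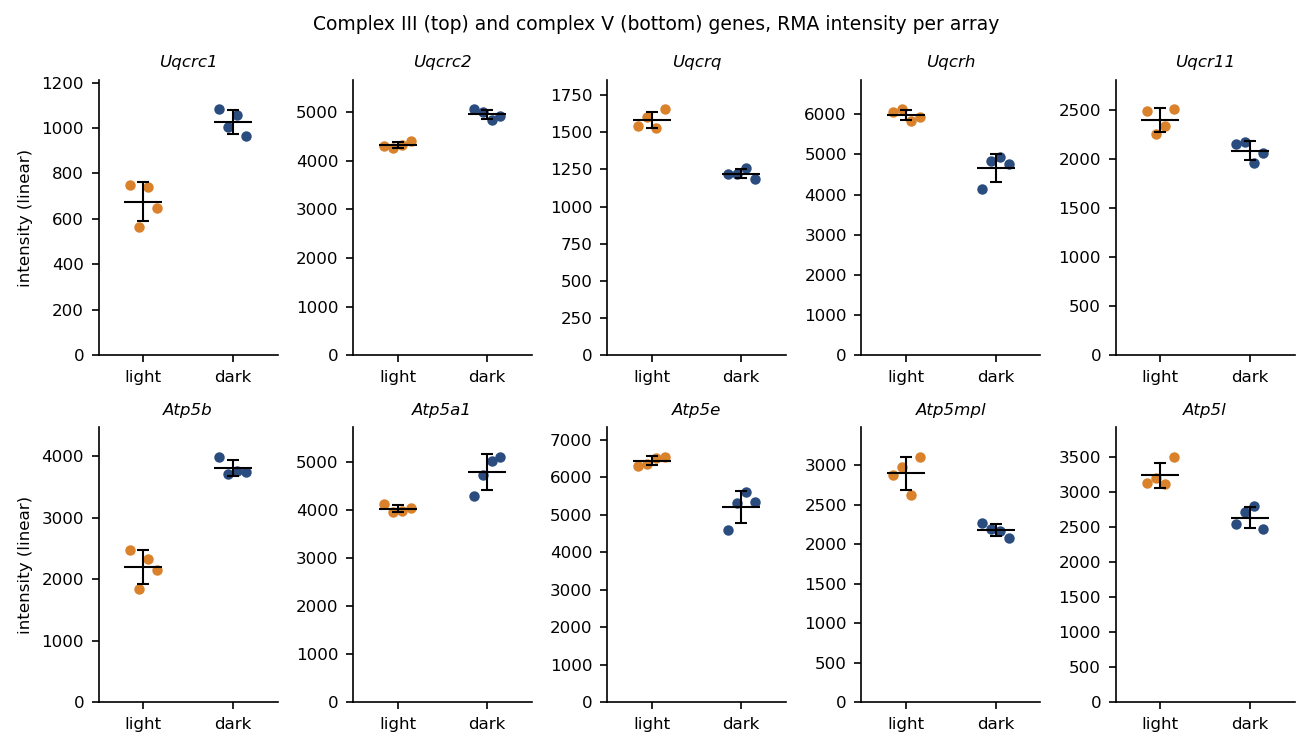
Intensity per array of 5 complex III genes (top) and 5 ATP synthase genes (bottom), with points for arrays, a line for the zone mean, bars of 1 SD (n = 4) and axes that start at 0. The core proteins Uqcrc1 and Uqcrc2 and the beta and alpha subunits, Atp5b and Atp5a1, lie higher in dark zone arrays, and the other genes shown lie lower. All genes shown were called, and members of these complexes that did not pass are left out.

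In complex IV, the cytochrome c oxidase, 14 of 18 members were tested. Of these, 3 were higher in dark zone cells (21.4%), 1 was lower (7.14%) and 10 did not pass. Over all genes tested 19.1% were higher and 24.8% lower. Cox7c, a small membrane subunit, read 291, 304, 282 and 287 in light zone and 223, 194, 229 and 217 in dark zone arrays, which gave a difference of -0.44 (SE 0.07, limma adjusted p = 0.00021). A second, dimmer probe set of Cox7c gave -0.51. Cox6a1 read 10464, 10384, 10762 and 10813 in light zone and 11869, 11940.5, 12172 and 12006 in dark zone arrays, which gave a difference of 0.18 (SE 0.05, limma adjusted p = 0.016). Cox6a1 is the widely expressed form of a regulatory subunit, and its groups did not overlap. Its second probe set gave -0.09, the opposite sign, and the call was lost with the mean of both (0.04, adjusted p = 0.46).

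Cox6b1, which links the monomers of the enzyme, differed by 0.19 (SE 0.05, limma adjusted p = 0.015), and its second probe set gave 0.04. The call was lost with the mean of both (0.11, adjusted p = 0.052) and with the second alone (adjusted p = 0.62). Cox4i2, the form of subunit 4 induced by low oxygen, was dim, with 42.9, 43.9, 43.4 and 44.9 in light zone and 47.3, 52.2, 54.4 and 53.2 in dark zone arrays, which gave a difference of 0.24 (SE 0.06, limma adjusted p = 0.0071). The main form, Cox4i1, read 6945, 6814, 7138 and 6905 in light zone and 7141, 6966, 7239 and 7038 in dark zone arrays, and did not pass (0.03, SE 0.05, limma adjusted p = 0.68). The members that did not pass had differences between -0.27 and 0.13. A second member was called lower without dark zone replicate 2 or light zone replicate 1.

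Cox7a2l, also called SCAF1, resembles a complex IV subunit and joins complexes III and IV into supercomplexes. It was higher in dark zone cells, reading 3145, 3063, 3042 and 3161 in light zone and 4158, 3680.3, 3745 and 4051 in dark zone arrays, which gave a difference of 0.33 (SE 0.06, limma adjusted p = 0.00088). Its other probe sets gave 0.43 and 0.73. C57BL/6 mice are known to carry a shortened form of this protein, and the arrays measure the mRNA only.

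The ATP synthase genes also moved both ways. Of the 5 genes of the F1 part, which holds the head and the central stalk, Atp5b and Atp5a1 were higher in dark zone cells. Atp5e was lower and 2 did not pass, among them Atp5c1 (0.15, SE 0.06, limma adjusted p = 0.057), whose dark zone arrays all lay above the light zone arrays. Atp5b, the catalytic beta subunit, had the largest difference of all members: 2484, 1843, 2333 and 2149 in light zone and 3993, 3707, 3761 and 3753 in dark zone arrays, 1.74-fold higher (log2 difference 0.80, SE 0.09, limma adjusted p = 1.4e-05). Atp5a1, the alpha subunit that alternates with beta around the head, read 4117, 3952, 3980.3 and 4028 in light zone and 4283, 4730.2, 5010.1 and 5099 in dark zone arrays. Its difference was 0.25 (SE 0.07, limma adjusted p = 0.0096), a second bright probe set gave 0.68, and a dim one gave -0.06. Atp5e, the epsilon subunit at the foot of the head, read 6308, 6359.6, 6523 and 6546 in light zone and 4590.4, 5309.8, 5607 and 5329.8 in dark zone arrays, which gave a difference of -0.31 (SE 0.07, limma adjusted p = 0.0032).

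Of the 12 genes of the membrane part (Fo) and the peripheral stalk, 4 were lower in dark zone cells, 8 did not pass and 9 of 12 differences were below 0. The share called lower was 33.3%, beside 24.8% of all genes tested. By limma 0 were called higher, beside 19.1% of all genes, and 0 were higher at an unadjusted p under 0.05. Atp5g1, which encodes the c subunit of the proton-driven ring, read 1338, 1416, 1403 and 1418 in light zone and 953, 1026, 935 and 945 in dark zone arrays, 1.45-fold lower (log2 difference -0.53, SE 0.06, limma adjusted p = 1.5e-05). Atp5mpl, a small membrane protein of the complex, read 2874, 2978, 2631 and 3110.4 in light zone and 2273, 2196, 2176 and 2084 in dark zone arrays, which gave a difference of -0.41 (SE 0.07, limma adjusted p = 0.00035). Neither gene's groups overlapped.

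Atp5l, subunit g, with a part in pairing the enzyme into dimers, differed by -0.30 (SE 0.07, limma adjusted p = 0.0029). Atp5o, the stalk subunit that confers sensitivity to oligomycin, differed by -0.27 (SE 0.08, limma adjusted p = 0.024), and lost its call without dark zone replicate 1 or 4 or light zone replicate 1 or 2 (adjusted p of 0.057 to 0.068). The members of the complex that did not pass had differences between -0.15 and 0.15.

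Several subunits are encoded by more than 1 gene, and these paralogs can be set beside each other by how each changed between zones. The 3 c subunit genes make the same mature protein from precursors that differ in their import sequence. Atp5g2 read 3206, 3328, 2989 and 3237 in light zone and 2934, 2903, 2989.5 and 2667 in dark zone arrays, and did not pass (-0.15, SE 0.06, limma adjusted p = 0.068). Atp5g3 read 8094, 7473, 7866 and 7658 in light zone and 6803, 7500.1, 7772 and 7719 in dark zone arrays, and did not pass (-0.06, SE 0.06, limma adjusted p = 0.45). The difference of Atp5g1 minus that of Atp5g2 was -0.38, and minus that of Atp5g3 it was -0.47, each with p = 0.0286 in an exact permutation test (two-sided, 70 arrangements of the arrays), the smallest p this design allows.

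The same p of 0.0286 (two-sided exact permutation test) was found for 3 other pairs. Cox7a2 did not pass (0.02, SE 0.05, limma adjusted p = 0.82), and its difference minus that of Cox7a2l was -0.31. For Cox4i1 minus Cox4i2 the value was -0.21, and for Uqcrc1 minus Uqcrc2, its partner core protein, it was 0.41. After Benjamini-Hochberg adjustment over the 11 pairs compared, these 5 pairs had adjusted p = 0.0629 in the exact permutation test, so none passed, although in each of the 5 the arrays of the zones did not overlap in the ratio of the pair. The remaining 6 pairs had exact permutation p between 0.0571 and 0.714.

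**Figure D4:**
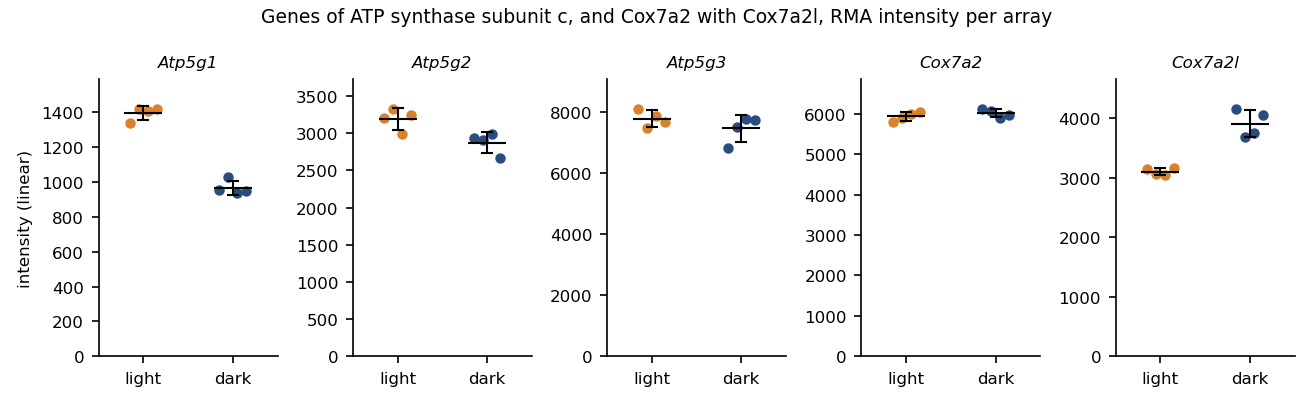
Intensity per array of the 3 ATP synthase c subunit genes and of Cox7a2 and Cox7a2l, with points for arrays, a line for the zone mean and bars of 1 SD (n = 4). Atp5g1 lies lower in dark zone arrays at a mean of 965 against 1394, Atp5g2 and Atp5g3 overlap between zones, and Cox7a2l but not Cox7a2 lies wholly higher.

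The other genes that build or serve the complexes were taken from lists of known function. Of 30 tested assembly and regulatory factors of complexes II to V, 12 were lower in dark zone cells and 2 were higher, with a median difference of -0.07. These were 40.0% lower and 6.67% higher, beside 24.8% and 19.1% of all genes tested. Without light zone replicate 2 the lower count was 7. The higher count was 1 without dark zone replicate 1 or 4 or light zone replicate 1 or 4, and 0 without dark zone replicate 2 or light zone replicate 3. Pet100, an assembly factor of complex IV, was lower by -0.55 (SE 0.06, limma adjusted p = 2.3e-05). Sdhaf1, which helps insert the iron-sulphur clusters of Sdhb, was lower by -0.48 (SE 0.09, limma adjusted p = 0.00082), against the direction of all 4 Sdh genes. Sco2, which delivers copper to complex IV, was lower by -0.45 (SE 0.09, limma adjusted p = 0.0011). Of 6 complex I assembly factors without the Nduf name, 1 was higher and 1 lower (16.7% each). The higher call was lost without dark zone replicate 3 or light zone replicate 1 or 2.

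Of 73 genes of the mitochondrial ribosome, which makes the subunits encoded in mitochondrial DNA, 24 were lower in dark zone cells and 8 were higher, with a median of -0.07. That is 43.8% called, beside 43.9% of all genes tested, with 32.9% lower and 11.0% higher, beside 24.8% and 19.1%. Mrpl17, of the large subunit, was lower by -0.52 (SE 0.06, limma adjusted p = 1.5e-05). Of 20 genes of protein import, which brings the nuclear subunits into the organelle, 6 were lower and 3 higher. Hspe1, the small partner of the matrix chaperonin, was lower by -1.14 (SE 0.31, limma adjusted p = 0.01), and Timm10, a chaperone of the intermembrane space, by -0.88 (SE 0.09, limma adjusted p = 9.6e-06). The related chaperones Timm8a1 and Timm9 were lower by -0.86 and -0.80. Pmpca, of the peptidase that removes import sequences, was higher by 0.43 (SE 0.06, limma adjusted p = 0.00013).

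Of 17 regulators of mitochondrial genes, 5 were lower (29.4%) and 2 higher (11.8%), beside 24.8% and 19.1% of all genes tested. The higher count was 1 without dark zone replicate 1, 2 or 3 or light zone replicate 1, 3 or 4, each left out alone. Ppargc1b, a coactivator of respiratory genes, fell from 165 ± 9.26 (SD, n = 4) in light zone cells to 106 ± 16.2 (SD, n = 4), a log2 gap of -0.66 (SE 0.10, limma adjusted p = 0.00022). Its relative Pprc1 was lower by -0.45 (SE 0.07, limma adjusted p = 0.00026). Esrra, a nuclear receptor that works with such coactivators, was lower by -0.31, and Mterf3, a mitochondrial factor, by -0.25. Gabpb2, a partner of Gabpa, was higher by 0.24. Gabpa, the DNA-binding subunit of an ETS factor, was higher by 0.17 (SE 0.06, limma adjusted p = 0.032). Of 13 genes of ubiquinone synthesis and of electron entry by other routes, 2 were higher (15.4%) and 3 lower (23.1%). Among the lower was Dhodh, which feeds electrons to ubiquinone from pyrimidine synthesis, at -0.64 (SE 0.08, limma adjusted p = 4.8e-05). Of 6 genes for nucleotide and phosphate exchange, 2 were higher (33.3%). These were Vdac3, by 0.26 (SE 0.06, limma adjusted p = 0.0051), and Vdac1, by 0.23 (SE 0.06, limma adjusted p = 0.011), both channels of the outer membrane.

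**Figure D5:**
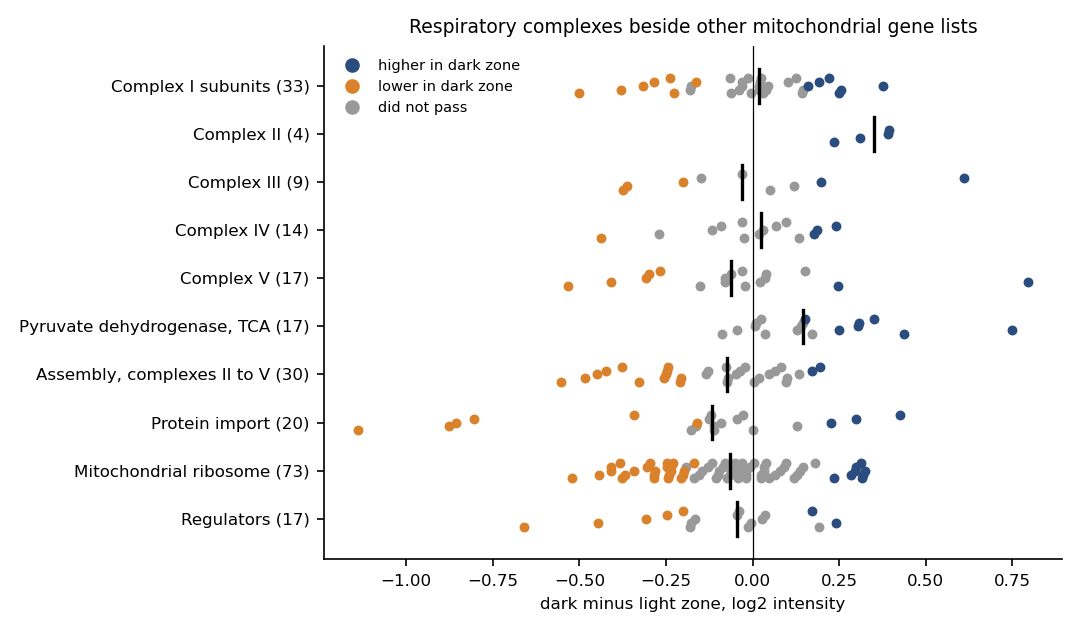
Difference between zones (dark minus light, log2 intensity) for genes of the respiratory complexes and of 5 other mitochondrial gene lists, with 1 point a gene, colour by the limma call and a black line at the list's median. Complex II and the list of pyruvate dehydrogenase and the TCA cycle hold called genes on the right only, with medians of 0.35 and 0.14, while every other list shown holds called genes on both sides.

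The array reads the 3′ end of transcripts, and several probe sets may read 1 gene. Of the 87 chosen probe sets, 36 carried no suffix in their identifier, 30 carried _a, 14 carried _s, which marks probes shared by several transcripts, and 7 carried _x, which marks probes that may also bind other sequences. Respiratory subunits have many processed pseudogenes, whose transcripts such probes could not tell apart. Of the 37 called members, 21 had another probe set above the filter. In 16 of these all such probe sets had the sign of the call, and in 5, Atp5a1, Cox6a1, Ndufab1, Ndufs8 and Sdha, at least 1 had the opposite sign. Atp5b, Uqcrc1, Sdhb and Ndufs1 had no other probe set above the filter.

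Ndufa12, an accessory subunit of complex I singled out after its values were seen, differed most between its probe sets. Its brightest probe set gave -0.03 (SE 0.06) and the next -0.04, both with the _x suffix. The third gave -0.31 (SE 0.06), and a dim one without suffix gave -1.58 (SE 0.09, unadjusted p = 2.36e-10 in limma). The gene did not pass by the brightest probe set. Likewise Uqcrb and Atp5j2 did not pass, while another probe set gave -0.27 for Uqcrb and -0.31 for Atp5j2.

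Promoter windows were found for 75 of the 92 members, 80 windows in all, and were searched on both strands. The NRF1 motif shown above occurred in 22.5% of the members' windows, beside 4.6% of all 32851 windows of the same length. The ETS motif occurred in 23.8%, beside 8.86%. A YY1 motif (AAGATGGCG) occurred in 8.75%, beside 1.4%, and an E box (CACGTG) in 8.75%, beside 7.15%. The motifs were searched independently and may overlap one another. These motifs were not tied to a direction of change by any test. The NRF1 motif was found in 5 of 13 genes that were higher in dark zone cells, 2 of 15 that were lower and 9 of 42 that did not pass. The ETS motif was found in 5 of 13, 4 of 15 and 10 of 42. The YY1 motif was found in 0 of 13, 1 of 15 and 6 of 42, and the E box in 0 of 13, 3 of 15 and 3 of 42. A match describes letters in the window and was not tested as a site.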

How the data were processed

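Total RNA was labelled with biotin by a 3′ in vitro transcription kit and hybridised to Affymetrix mouse arrays, per the labels. The authors deposited intensity values on a linear scale, made with RMA (background correction, quantile normalization and probe summary) per the submitters' processing notes, and the version is not given in the sources used here. That normalization sets all arrays to 1 distribution, which hides any shift in the total RNA of a cell. The log2 of the deposited intensity was taken with no pseudocount.

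Gene names came from the platform annotation. Of 45037 probe sets, 34945 carried 1 symbol, 932 several (10 of them matching a member's name, left out) and 9160 none. The brightest probe set stood for each gene, and genes with a mean under the 50th percentile of probe set means were not tested. Zones were compared with limma 3.58.1 under R 4.3.3 (two-sided, lmFit with eBayes defaults, Benjamini-Hochberg over all 10547 genes tested). The fit was tried beforehand on simulated data with far fewer changed genes than were called here. It recovered 25.4% of log2 differences of 0.25, 83.6% of 0.5 and 97.0% of 1. A gene that did not pass may thus still differ by a small amount. Paralog ratios were compared by exact permutation. Promoter windows came from RefSeq (GRCm38.p6). Figures were drawn with matplotlib 3.10.9.

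The members and gene lists were chosen with earlier results of these data known. The rule for named genes takes, in each complex and each other list, up to 4 called genes with the largest differences in each direction, and members that are paralogs, below the filter or read in opposite directions by their probe sets. The other called members, Cyc1, Uqcrfs1, Ndufa12, Uqcrb, Atp5c1 and Atp5j2 lie outside it and were named after their values were seen. Alternatives varied the filter, probe set choice, normalization, pseudocount, variance model, array weights, replicate block, threshold and arrays included. The number of arrays limits the precision.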

Additional observations from a re-analysis of the deposited data

Results flagged for a closer look

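Of 184 groups of 4 arrays examined, 1 for each member and zone, 8 held an array that stood far from the others by Dixon's test, where chance gives about 1 in 20 groups. In dark zone cells, replicate 1 was the array that stood apart in 4 of them. Atp5h read 4714 there against 5496 to 5651 in the others, Cox5b 8646 against 8212 to 8265, Ndufv2 2846 against 2567 to 2572, and Uqcrb 9370.2 against 8509.6 to 8619. Without that array the log2 differences were 0.10 for Atp5h, 0.12 for Cox5b, -0.07 for Ndufv2 and -0.06 for Uqcrb. Atp5md read 1473 in dark zone replicate 3 against 1591 to 1606, and its difference without it was -0.05. Sdhd read 1179.6 in dark zone replicate 4 against 1326 to 1349, and its difference without it was 0.35. In light zone cells, Ndufs1 read 785 in replicate 1 against 638 to 655, and its difference without it was 0.45. Ndufa9 read 1313 in light zone replicate 2 against 1169 to 1179.8, and its difference without it was 0.17.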

How the results depend on the processing

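Every difference rests on 4 arrays a zone. The differences of 46 named members were recomputed 826 times in all under the alternatives, leaving out adjusted p under 0.01 and the 1.2-fold minimum. Of these, 760 kept direction and side of the threshold, 45 lost a call, 14 gained one and 7 turned sign. The 2 settings left out lost further calls. With adjusted p under 0.01, 12 of the 18 higher and 15 of the 19 lower members were still called. With a 1.2-fold minimum these were 7 and 14. All 4 complex II calls held under every setting except adjusted p under 0.01 and a 1.2-fold minimum, which kept 3 each. The replicate numbers were not taken as pairing the samples, since replicate 3 lay under 0.1 in the correlation of same-numbered samples. These correlations, of deviations from each gene's mean in its zone, were 0.126, 0.189, 0.0596 and 0.243. As a hint from the data and not the design, the deviations of each of the 4 light zone arrays correlated best with those of the dark zone array of its number. The reverse held for 3 of the 4 dark zone arrays. With the replicate number as a block, 16 members were higher, 20 lower, and complex IV had 2 lower calls. Ndufa4 was then called (adjusted p = 0.011) and Ndufb8 (0.06) and Ndufs8 (0.054) were not. Where counts moved the cause was not tested, beyond the stricter threshold or smaller set of arrays itself.

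When arrays were median centred 16 members were higher and 23 lower, beside 1731 and 2835 of all genes. With the mean of probe sets these were 14 and 22, beside 2149 and 2360 of all genes. With a trended, robust variance they were 22 and 24, beside 2076 and 2678. The higher counts moved as follows. With adjusted p under 0.01 they were 1316 for all genes, 3 for complex I subunits, 1 for complex IV, 0 for other complex I assembly factors, 0 for assembly of complexes II to V, 1 for exchange and 0 for regulators. With a 1.2-fold minimum they were 7 for members, 1 for complex I subunits, 1 for complex III, 0 for complex IV, 1 for complex V, 0 for other complex I assembly factors, 0 for assembly of complexes II to V, 0 for exchange and 0 for regulators. With the mean of all probe sets they were 1 for complex IV, 2 for other complex I assembly factors, 1 for assembly of complexes II to V and 4 for regulators. With the 25th percentile filter, and with no filter, they were 2 for other complex I assembly factors and 1 for assembly of complexes II to V, and with no filter 1 for regulators. Assembly of complexes II to V also had 1 when arrays were median centred, when they were quantile normalized again and with probe sets without suffix. Regulators had 1 when median centred, and ubiquinone genes had 4 when quantile normalized again.

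The lower counts with a 1.2-fold minimum were 4 for complex I subunits, 6 for assembly of complexes II to V, 3 for regulators and 13 for the mitochondrial ribosome. Assembly of complexes II to V had 7 with adjusted p under 0.01, complex III had 5 with the mean of probe sets, and complex IV had 2 with probe sets without suffix and 3 with a trended, robust variance.

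Leaving out 1 array at a time gave 16 to 19 higher and 17 to 20 lower members. The same 16 higher and 16 lower members were called in all 8 fits. Higher counts were 0 to 1 for complex I assembly, 0 to 1 for its factors of other names, 0 to 2 for assembly of complexes II to V and 1 to 2 for regulators. Lower counts were 7 to 12 for assembly of complexes II to V and 1 to 2 for complex IV.

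Some directions turned with the probe set read. With the mean of probe sets Ndufab1 was 0.081 and Cox7a2 -0.011, and with probe sets without suffix Ndufab1 was 0.35, Ndufs8 -0.10, Ndufc1 -0.079 and Cox7a2 -0.039. Cox7a2 was -0.0061 when median centred. The Atp5g1 difference exceeded that of Atp5g2 by 0.23 and of Atp5g3 by 0.14 with probe sets without suffix, where Atp5g1 is read from a probe set below the filter. With a pseudocount of 16, Cox6b1 against Cox6b2 was 0.00045. Adjusted over only the 8 pairs with both genes above the filter, 5 passed at the values reported: -0.38, -0.47, -0.21, -0.31 and 0.41. Leave-one-out ranges of the pairs were -0.17 to 0.044 for Cox8a against Cox8b, -0.41 to -0.35 and -0.51 to -0.43 for Atp5g1 against Atp5g2 and Atp5g3, -0.26 to -0.19 for Cox4i1 against Cox4i2, -0.20 to -0.052 for Cox6b1 against Cox6b2, -0.35 to -0.29 for Cox7a2 against Cox7a2l, -0.44 to -0.25 for Ndufa4 against Ndufa4l2 and 0.34 to 0.47 for Uqcrc1 against Uqcrc2.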
